A study of Mus musculus with 12 samples.

Results

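The genes described here make ribosomes. A list of 34 symbols was searched in a table of 20069 genes, measured by RNA-Seq of polyadenylated RNA from mouse liver. The table held 23 of these symbols. The other 11 genes were listed under older symbols, for example *Nol5a* for *Nop56* and *D13Wsu177e* for *Nop16*, and were found with RefSeq's list of synonyms. That second search was made after the symbols of the table had been seen, so the 11 genes are counted apart. All 12 samples came from wild-type C57BL/6 mice, male and aged 3 to 6 months, that had been kept for at least 2 weeks in 12 hr of light and 12 hr of darkness. Livers were taken every 4 hr from ZT2 to ZT22 (ZT, hours after lights on, with lights off at ZT12) in 2 independent series. There were 2 samples per time point, and no mutant or treated group was analysed here. The question was whether the mRNA levels of these genes change over the day.

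Ribosomes are assembled mainly in the nucleolus. RNA polymerase I transcribes the precursor of most ribosomal RNAs, small nucleolar ribonucleoproteins (snoRNPs) modify it at many sites, and a long series of helicases, nucleases and assembly factors cuts and folds it into a small and a large subunit. Cells that grow or divide make many ribosomes, and in other tissues the transcription factor MYC is a known activator of many of these genes. In the liver, feeding is known to increase ribosome production.

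The unit is reads per base pair (rpbp), the mean coverage over the exons of a gene scaled to 40000000 uniquely mapped sequences. It is corrected for length, so that levels of different genes can be compared. Between 8762 and 9108 genes per sample were above 8 rpbp. A gene was tested when at least 1 of its 12 values was above 8 rpbp, which left 10198 genes. Of the 23 genes found by symbol, 21 were tested, and 17 of these were above 8 rpbp in every sample. Of the 11 found by an older symbol, 10 were tested, and 9 were above that level in every sample. The other tested genes passed only through their higher samples.

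The 12 samples were liver by their markers, since the albumin mRNA *Alb* averaged 97960 rpbp and none of 8 hepatocyte markers was at 0. The summed level of these markers was 91723 and 94681 rpbp in the ZT2 samples and between 135741 and 173833 rpbp in the other 10. Most of this sum was *Alb*, with 50450 and 53130 rpbp at ZT2 and 93170 to 122500 rpbp in the other samples. The means of *Alb*, *Ttr*, *Cps1*, *Hnf4a*, *Tat* and *Cyp2e1* were lowest at ZT2, by little in *Hnf4a* and *Cyp2e1*. Those of *Apoa1* and *Serpina1a* were highest there. The sum of 8 Kupffer cell markers was also apart at ZT2, with 841 and 857 rpbp against 445 to 670 rpbp. The ZT2 samples therefore stood apart in both sums, although the hepatocyte markers did not all move the same way. Calls that rest on the ZT2 samples are also given without them. All 8 markers of liver endothelium were detected, with a sum of 226 to 270 rpbp. The 8 markers of dividing cells summed to 9.64 to 16.7 rpbp and the 6 lymphocyte markers to 4.52 to 13.04 rpbp. These are whole livers, in which fewer cells of a type and less RNA per cell cannot be told apart.

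The levels of the ribosome biogenesis genes spanned a wide range. *Npm1*, which encodes the abundant nucleolar chaperone nucleophosmin, had the highest mean among the genes found by symbol, 132.5 rpbp, with samples between 121.1 and 145.7 rpbp. *Nop10* of the H/ACA snoRNP was next to it, with a mean of 121.1 rpbp and samples between 108.3 and 131.4 rpbp. The lowest gene was *Polr1e*, a subunit of RNA polymerase I, with a mean of 3.19 rpbp and samples between 2.00 and 5.44 rpbp. *Polr1e* and the small subunit factor *Rrp12* (highest sample 6.28 rpbp) were below the minimum in every sample. So was *Polr1a*, which encodes the catalytic subunit of RNA polymerase I, with a highest sample of 7.72 rpbp. The members just above it were *Utp18* (highest sample 8.92 rpbp), *Gar1* (9.28 rpbp) and *Nob1* (9.48 rpbp). RefSeq also gives Polr1e as an older name of *Polr1c*, and the row named Polr1e was taken as the gene of that name.

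**Figure D1:**
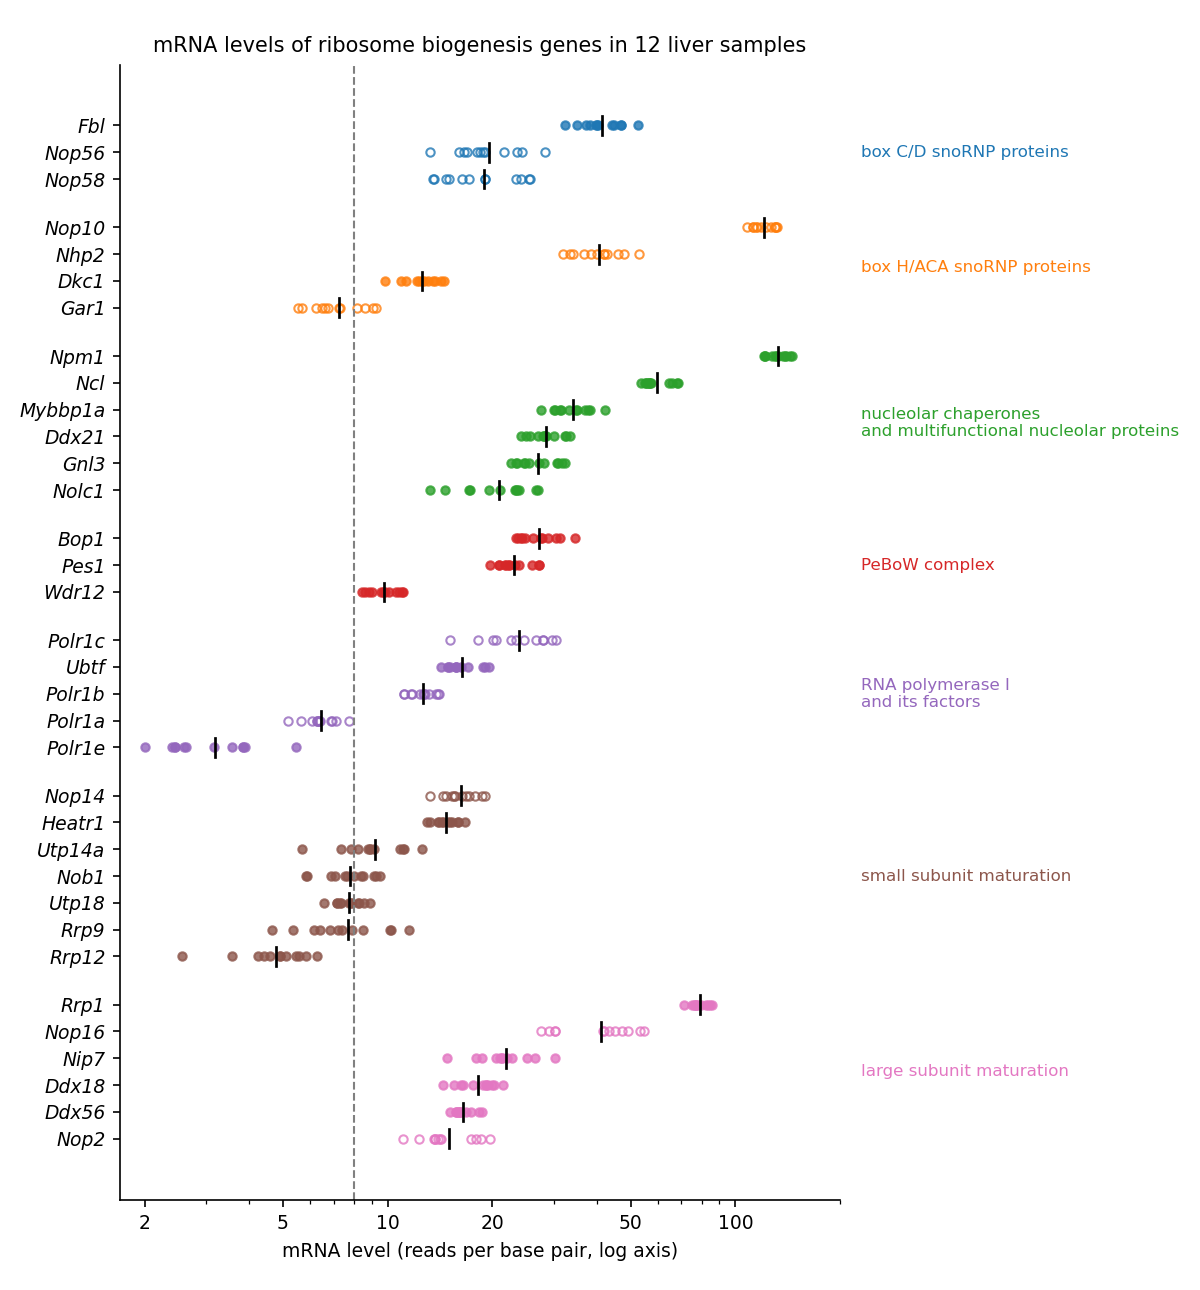
mRNA level of each of the 34 genes in the 12 samples, in reads per base pair on a log axis, grouped by role. Filled points are genes found by symbol and open points genes found by an older symbol, black ticks are means and the dashed line is the minimum of 8 rpbp. Means run from 3.19 rpbp (*Polr1e*) to 132.5 rpbp (*Npm1*).

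Promoter sequences are shown because the E-box CACGTG is the sequence that both MYC and the clock factors CLOCK and BMAL1 are known to bind. RefSeq windows of 300 bases around the start (GRCm38.p6) were given for 30 of the 34 genes, with 37 windows in all. CACGTG, which reads the same on both strands, was in 4 of the 37 windows (10.8%) and in 2349 of all 32851 windows (7.15%). It lay before the start in *Nop2* and *Utp18*, and after it in *Pes1* and *Mybbp1a*. Printed here are 100 bases with the motif in their middle from the *Nop2* promoter (chr6:125131776-125131875, plus strand) and the 67 bases before the start of *Utp18* (chr11:93885767-93885833, minus strand), with the E-box in capitals.
Nop2: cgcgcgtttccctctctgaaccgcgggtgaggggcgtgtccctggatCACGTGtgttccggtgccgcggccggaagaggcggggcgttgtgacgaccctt
Utp18: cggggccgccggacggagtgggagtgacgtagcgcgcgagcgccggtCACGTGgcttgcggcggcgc
The motif ended 54 bases before the start of *Nop2* and 14 bases before that of *Utp18*. Neither gene was called rhythmic by any of the tests that follow.

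Few ribosome biogenesis genes had a daily rhythm by the criteria of the study. These take the share of the variance of the 12 values that follows a 24 hr cosine (F24, above 0.45), a permutation p below 0.05 and a highest over lowest value above 1.5. Of the 21 genes found by symbol, 1 met them (4.76%), and of the 10 found by an older symbol none did. Among all 10198 genes 19.1% did. Without the minimum for the amplitude, which is a setting added after the values were seen, the count was 5 of 21 (23.8%) against 26.2% of all genes. The amplitude was above 1.5 in 7 of the 21 genes (33.3%) and in 64.3% of all genes.

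The gene that met the criteria was *Nip7*, which encodes a factor for the large subunit (chromosome 8, 109580777 to 109584826, plus strand, mm9). Its samples had 30.3 and 26.5 rpbp at ZT2, 18.6 and 25.1 at ZT6, 22.8 and 21.04 at ZT10, 21.4 and 14.8 at ZT14, 20.5 and 17.96 at ZT18, then 21.3 and 22.04 at ZT22. Both ZT2 samples were above all others, and a ZT14 sample was the lowest. F24 was 0.507 with a permutation p of 0.0326 over the orders of the 12 values, and the p adjusted over all genes was 0.154. The highest value was 2.04 times the lowest. The call was lost in 8 of the 12 fits that left out 1 sample, each sample of ZT2 included, and p was 0.353 without both ZT2 samples.

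A 24 hr cosine was also fitted to log2(rpbp + 1) with limma, which gives a fitted peak to trough difference and needs no minimum for the amplitude. At an adjusted p below 0.05 limma called none of the 21 genes and none of the 10, against 9.22% of all genes. At an unadjusted p below 0.05 there were 4 of 21 (19.0%) and 1 of 10, against 27.6% of all genes. The median fitted difference of the 21 genes was 0.21 on the log2 scale, a fold of 1.16, against 0.29 over all genes. Fitted peaks were spread around the day. Their circular mean was 5.64 hr with a resultant length of 0.177 (0 for peaks in all directions, 1 for peaks at one time), and it was 7.44 hr in series 1 alone and 1.18 hr in series 2 alone. With size factors from the median of ratios it was 11.1 hr, so that no common 24 hr peak time can be given.

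*Ncl* had the smallest p of the 24 hr fit. It encodes nucleolin, an abundant nucleolar protein that binds ribosomal RNA (chromosome 1, 88241294 to 88256030, minus strand, mm9). Its samples had 57.2 and 53.6 rpbp at ZT2, 55.4 and 57 at ZT6, 65.9 and 64.6 at ZT10, 68.5 and 67.9 at ZT14, 55.04 and 56.6 at ZT18, then 55.7 and 56.4 at ZT22. The 4 samples of ZT10 and ZT14 were above the other 8, which differed little. The fitted difference was 0.30 ± 0.08 (SE) with a peak at 12.3 hr and an adjusted p of 0.075 in limma, and F24 was 0.728 with a permutation p of 0.0045. Its highest value was only 1.28 times its lowest, below the limit of the study. With size factors from the median of ratios limma's adjusted p was 0.0399, past the threshold, and that of the test of time points was 0.0335.

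*Ubtf*, which encodes the upstream binding factor of RNA polymerase I, came next (chromosome 11, 102165874 to 102181056, minus strand, mm9). Its samples had 19.6 and 18.8 rpbp at ZT2, 19 and 17.1 at ZT6, 14.96 and 15.7 at ZT10, 15.8 and 15.1 at ZT14, 14.2 and 15.7 at ZT18, then 14.96 and 16.3 at ZT22. The 4 samples of the early light phase were above the other 8. The fitted difference was 0.32 ± 0.09 with a peak at 3.63 hr (limma, adjusted p = 0.0888), and F24 was 0.676 with a permutation p of 0.007.

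The next genes by p among those found by symbol did not pass either. *Nip7* had a fitted difference of 0.49 ± 0.15 (limma, adjusted p = 0.129, and 0.0428 without ZT6 replicate 1). In *Gnl3*, which encodes the nucleolar GTPase nucleostemin, the samples lay between 22.6 and 32.5 rpbp and the ZT6 mean was the highest, with a fitted difference of 0.34 ± 0.12 (limma, adjusted p = 0.175). *Utp14a*, a factor for the small subunit, lay between 5.68 and 12.6 rpbp with the highest mean at ZT2, and its fitted difference was 0.48 ± 0.19 (limma, adjusted p = 0.23). Of its exon bases 11.5% are shared with a gene on the other strand, and the coverage was summed without regard to strand. *Pes1* lay between 19.8 and 27.3 rpbp, with a fitted difference of 0.26 ± 0.11 (limma, adjusted p = 0.253).

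**Figure D2:**
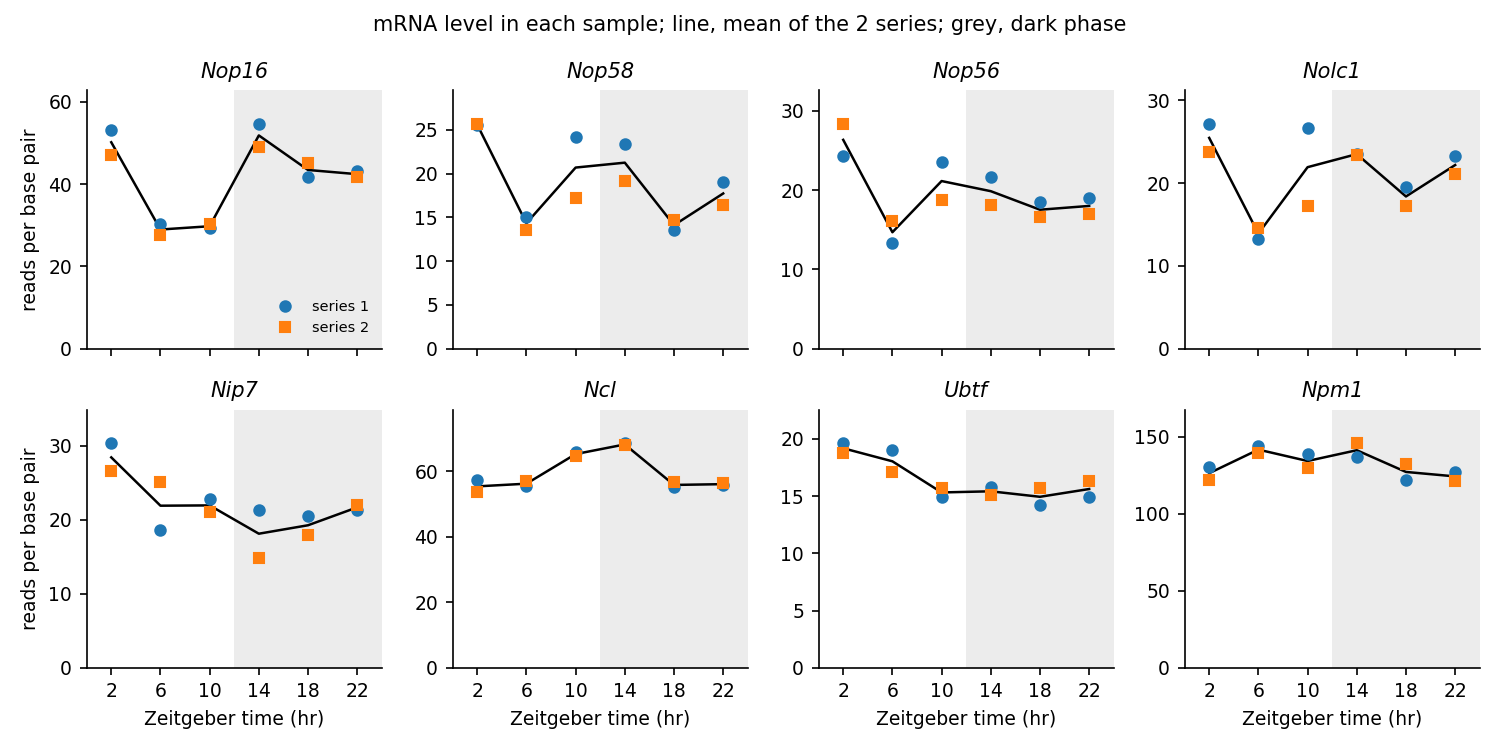
mRNA level in each sample (reads per base pair, from 0) against Zeitgeber time for 8 of the genes, with circles for series 1, squares for series 2, a line through the means of both series and the dark phase in grey. *Nop16*, *Nop58*, *Nop56* and *Nolc1* were low at ZT6 in both series, *Nip7* was highest at ZT2, *Ncl* was highest at ZT10 and ZT14, *Ubtf* was high at ZT2 and ZT6, and *Npm1* stayed between 121.1 and 145.7 rpbp.

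The times of the highest and lowest means were then counted. The mean was highest at ZT2 in 12 of the 21 genes (57.1%; 29.2% of all genes) and at ZT14 in 6 (28.6%; 15.4%). It was lowest at ZT6 in 9 genes (42.9%, against 16.3% of all genes), at ZT18 in 4 (19.0%, against 17.8%) and at ZT22 in 4 (19.0%, against 10.7%). *Wdr12*, counted at ZT6, was equally low at ZT18. None of the 21 was highest at ZT10, ZT18 or ZT22, where 14.9%, 8.51% and 11.8% of all genes were highest. Of the 10 genes found by an older symbol, 4 were highest at ZT2 and 5 at ZT14, and 5 were lowest at ZT6 and 4 at ZT18. Most of these genes thus had their highest mean early in the light phase or early in the dark phase. The median log2 deviation of the 21 genes from their own means was 0.103 and 0.148 in the ZT2 samples, -0.0955 and -0.0551 at ZT6, 0.0516 and 0.138 at ZT14, and -0.105 and -0.0792 at ZT18. The same median over all genes was 0.0528 in ZT2 series 1 and 0.042 in ZT14 series 1. With size factors from the median of ratios the 8 values of the 21 genes at ZT2, ZT6, ZT14 and ZT18 kept their signs. The value of ZT2 series 1 was then 0.0527 and that of ZT14 series 1 was 0.0109, while those of ZT10 were 0.0985 and -0.0317.

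Neighbouring time points were compared by asking whether both samples of the later one were above, or below, both samples of the earlier one. Both samples were lower at ZT6 than at ZT2 in 14 of the 21 genes, against 34.8% of all genes, and higher at ZT10 than at ZT6 in 6 of 21, against 17.9%. They were higher at ZT14 than at ZT10 in 9 of 21, against 25.3%, and lower at ZT18 than at ZT14 in 13 of 21, against 25.8%. They were higher at ZT22 than at ZT18 in 7 of 21, against 24.0%, and higher at ZT2 than at ZT22 in 12 of 21, against 27.5%. The shares stood above those of all genes by the most at the falls from ZT2 to ZT6 and from ZT14 to ZT18 and at the step from ZT22 to ZT2. With size factors from the median of ratios these 3 counts were 13, 11 and 11, against 33.2%, 23.1% and 22.7% of all genes. The count from ZT10 to ZT14 was 4, below the share of all genes (22.8%). That from ZT6 to ZT10 was 8, against 24.6%, and that from ZT18 to ZT22 was 5, against 21%. These steps were set out after the values had been seen, and they are counts and not tests.

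**Figure D3:**
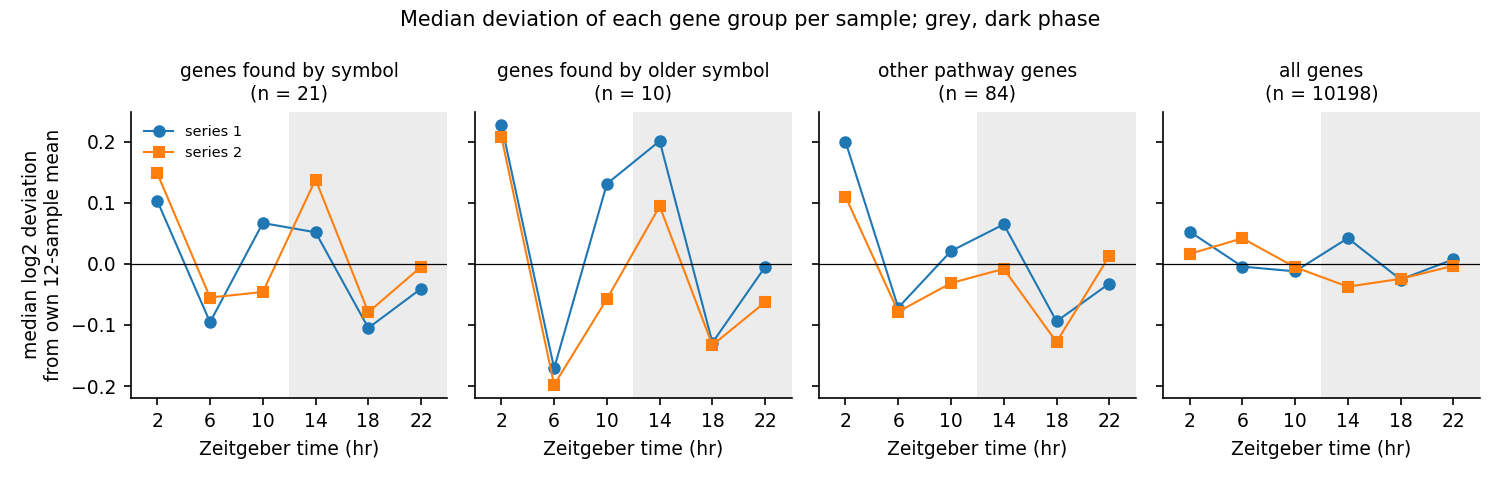
Median over the genes of a group of the log2 deviation from each gene's own mean of the 12 samples, against Zeitgeber time, for series 1 (circles) and series 2 (squares), with the dark phase in grey. The genes found by symbol were above 0 at ZT2 and ZT14 and below 0 at ZT6 and ZT18 in both series, and above 0 at ZT10 in series 1 only. Those found by an older symbol were between -0.198 and 0.228.

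A 12 hr cosine was added to the limma fit after this shape had been seen. It describes a profile with 2 peaks a day, although with samples every 4 hr any daily profile that is not a cosine has such a component as well. The fitted 12 hr difference was larger than the 24 hr difference in 11 of the 21 genes (52.4%) and 9 of the 10 (90.0%), against 39.6% of all genes. Its median was 0.19 in the 21 genes and 0.42 in the 10, against 0.24 over all genes. The first 12 hr peak fell between 0 and 3 hr, and the second between 12 and 15 hr, in 17 of the 21 genes (81.0%) and in 10 of the 10, against 36.2% of all genes. The circular mean of the first peak was 1.78 hr for the 21 genes, with a resultant length of 0.740, where all genes had 0.0699. The window of 0 to 3 hr was also set after the values had been seen. The count and the mean thus describe the highs at ZT2 and ZT14 again and are not tests. Genes with little 12 hr component were counted too, such as *Utp18* with a 12 hr difference of 0.04 ± 0.12.

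At an adjusted p below 0.05 the 12 hr fit called none of the 21 genes, and 7 had an unadjusted p below 0.05 (33.3%; 23.7% of all genes). It called 2 of the 10 genes, *Nop16* and *Nop58*, where 3.85% of all genes were called, and 5 of the 10 had an unadjusted p below 0.05. A test in limma that the 6 time points have the same mean called *Nolc1* among the 21 genes (4.76%), and *Nop16*, *Nop58* and *Nop56* among the 10, against 20.4% of all genes. Without both ZT2 samples the 12 hr fit called none of the 31 genes and 1 of the 10198. The test of time points then called only *Nop16* of the 31, against 6.15% of all genes.

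**Figure D4:**
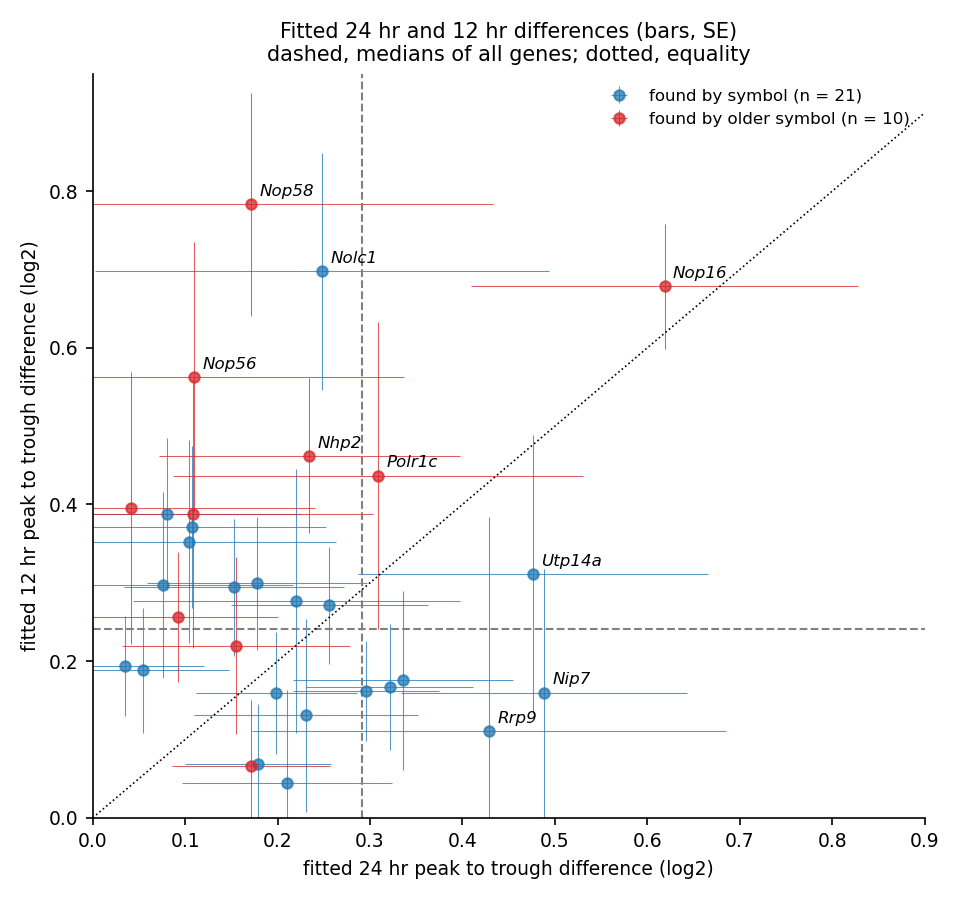
Fitted 12 hr difference against fitted 24 hr difference of the 31 tested genes, both as log2 peak to trough with SE bars, in blue for genes found by symbol and in red for those found by an older symbol. Dashed lines are the medians of all genes (0.29 and 0.24), and the points of *Nop58*, *Nolc1* and *Nop56* lie far above the dotted line of equality.

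Of the 3 genes of the list that encode core proteins of the box C/D snoRNP, the particle that guides the methylation of ribosomal RNA, *Nop56* and *Nop58* were called by the test of time points, which called 20.4% of all genes. *Snu13*, which encodes a further core protein and was not on the list, was just outside the threshold (limma, adjusted p = 0.0647 for time points and 0.0533 for 12 hr). It passed both at a minimum of 16 rpbp, and the 12 hr fit also with a pseudocount of 0.1 or without ZT22 replicate 1. *Nop58* (chromosome 1, 59741853 to 59768968, plus strand, mm9) had 25.5 and 25.6 rpbp at ZT2, 15.04 and 13.6 at ZT6, 24.2 and 17.2 at ZT10, 23.4 and 19.1 at ZT14, 13.5 and 14.7 at ZT18, then 19.04 and 16.4 at ZT22. Its ZT2 samples were the highest, and the 4 samples of ZT6 and ZT18 were the lowest. The 12 hr difference was 0.78 ± 0.14 with peaks at 0.811 and 12.8 hr (limma, adjusted p = 0.0357), while the 24 hr difference was 0.17 ± 0.26. The adjusted p of the test of time points was 0.0267. Each of these calls was lost in 6 of the 12 fits that left out 1 sample, with ZT2 and ZT6 samples of both series among them. Both were also lost with no expression minimum (limma, adjusted p = 0.07 for 12 hr and 0.0619 for time points), and the 12 hr call was lost without the trend (0.0504). Neither passed without both ZT2 samples (limma, adjusted p = 0.308 and 0.15). In that setting the 12 hr fit called only 0.00981% of all genes, so that it could keep almost no call.

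*Nop56* (chromosome 2, 130100166 to 130105049, plus strand, mm9) had 24.4 and 28.3 rpbp at ZT2, 13.3 and 16.1 at ZT6, 23.5 and 18.8 at ZT10, 21.6 and 18.1 at ZT14, 18.5 and 16.6 at ZT18, then 19.04 and 16.96 at ZT22. Both ZT2 samples were above all others and both ZT6 samples below all others. The ZT2 mean was 1.79 times the ZT6 mean, and the test of time points passed (limma, adjusted p = 0.0411), although the call was kept in only 2 of the 12 fits that left out 1 sample, those without a ZT10 sample. The call was also lost with the replicate number as a block (limma, adjusted p = 0.0584), with no expression minimum (0.0864) and without the trend (0.0545). *Fbl*, which encodes the methyltransferase fibrillarin of the same particle, lay between 32.3 and 52.5 rpbp. It was also highest at ZT2, with a smaller 12 hr difference of 0.35 ± 0.13 (limma, adjusted p = 0.235).

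*Nolc1* encodes a nucleolar phosphoprotein that binds snoRNPs (chromosome 19, 46150353 to 46160018, plus strand, mm9). Its samples had 27.1 and 23.8 rpbp at ZT2, 13.2 and 14.6 at ZT6, 26.6 and 17.2 at ZT10, 23.6 and 23.4 at ZT14, 19.5 and 17.2 at ZT18, then 23.3 and 21.1 at ZT22. The ZT6 samples were below all others, and the ZT10 samples lay far apart. The ZT2 mean was 1.83 times the ZT6 mean, and the test of time points had an adjusted p of 0.0496 in limma. Of the 12 fits that left out 1 sample, only the 2 without a ZT10 sample kept the call. It was also lost with no expression minimum (limma, adjusted p = 0.104) and with size factors (0.0504). Its 12 hr difference was 0.70 ± 0.15 (limma, adjusted p = 0.0609), and that fit passed without ZT10 replicate 1 (0.0117) and without ZT10 replicate 2 (0.0454).

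Among the box H/ACA proteins, whose particle converts uridines of ribosomal RNA to pseudouridine, none was called by any test with all 12 samples and the minimum of 8 rpbp. *Nhp2* was nearest, with 42 and 46 rpbp at ZT2, 38.4 and 34.1 at ZT6, 42.7 and 47.9 at ZT10, 52.8 and 41.9 at ZT14, 33.5 and 32.04 at ZT18, then 40 and 36.8 at ZT22. The ZT18 samples were the lowest, and the 12 hr difference was 0.46 ± 0.10 (limma, adjusted p = 0.0586). It was called by the 12 hr fit at a minimum of 16 rpbp (limma, adjusted p = 0.0472) and by the test of time points without ZT14 replicate 2 (0.0386). *Dkc1*, the pseudouridine synthase, lay between 9.84 and 14.6 rpbp, and *Gar1* between 5.52 and 9.28 rpbp. *Nop10* varied least of the 4, with a 12 hr difference of 0.07 ± 0.08.

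*Ddx21*, an RNA helicase of the nucleolus, had 32.6 and 33.5 rpbp at ZT2 and 24.96 and 24.2 rpbp at ZT6, and its other 8 samples lay between 25.6 and 32.3 rpbp. The ZT2 samples were thus above and the ZT6 samples below all others, while limma's adjusted p was 0.126 for the 12 hr fit and 0.0877 for time points. *Mybbp1a*, a nucleolar protein that binds MYB, was highest at ZT14 (38.2 and 42.3 rpbp) and at ZT2 (37.7 and 36.9 rpbp), with a 12 hr difference of 0.39 ± 0.10 (limma, adjusted p = 0.0872). *Npm1*, the most abundant gene, varied little, and its ZT6 mean was 1.14 times its ZT22 mean.

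The 3 proteins of the PeBoW complex, which is needed for the large subunit, all had an unadjusted p below 0.05 in the 12 hr fit, as did 23.7% of all genes, and none passed the adjustment. Their 12 hr differences were 0.37 ± 0.10 in *Bop1*, 0.27 ± 0.07 in *Pes1* and 0.29 ± 0.09 in *Wdr12* (limma, adjusted p between 0.116 and 0.142). *Bop1* was highest at ZT2, with 27.9 and 34.6 rpbp, and *Wdr12* at ZT14, with 11.1 and 10.8 rpbp. The lowest mean was at ZT6 in *Bop1*, at ZT6 and equally at ZT18 in *Wdr12*, and at ZT22 in *Pes1*, so the highest and lowest times were not the same in all 3.

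RNA polymerase I and its factors gave no call. *Polr1b*, its second largest subunit, had 13.9 and 13.2 rpbp at ZT2, 11.2 and 11.1 at ZT6, 12.7 and 12.4 at ZT10, 14.1 and 13.8 at ZT14, 11.6 and 12.8 at ZT18, then 12.8 and 11.8 at ZT22. The ZT6 samples were the lowest, by a small margin, and the 12 hr difference was 0.26 ± 0.08 (limma, adjusted p = 0.171). *Polr1c*, a subunit shared with RNA polymerase III, varied more between the series, with 26.7 and 15.1 rpbp at ZT10 and 20.1 and 30.6 rpbp at ZT18, and its adjusted p was 0.348. The untested *Polr1a* had its highest mean at ZT14 and its lowest at ZT22, 1.29 times apart, and the untested *Polr1e* was highest at ZT2 (3.84 and 5.44 rpbp) and lowest at ZT6 (2.40 and 2.00 rpbp).

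The factors for the small subunit also gave no call by any of the 4 tests with all 12 samples and the minimum of 8 rpbp. With the replicate number as a block, *Utp14a* met the F24 criteria (permutation p = 0.0365), as it did without ZT22 replicate 2 (permutation p = 0.0239). *Heatr1*, a component of the early small subunit processome, lay between 12.96 and 16.7 rpbp, with the highest mean at ZT2 and the lowest at ZT6. Its F24 was 0.506 with a permutation p of 0.048, at an amplitude of 1.29. *Utp18* had an F24 of 0.488 with a permutation p of 0.0512, just outside the limit. *Rrp9*, a protein of the U3 snoRNP, went the other way, with 10.2 and 11.5 rpbp at ZT6 as its highest mean and 6.4 and 4.64 at ZT18 as its lowest. Its fitted 24 hr difference was 0.43 ± 0.26 (limma, adjusted p = 0.467). *Nob1*, the nuclease that makes the mature end of the 18S ribosomal RNA, and *Nop14* had adjusted p of 0.528 and 0.424 in the 12 hr fit of limma.

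In the large subunit group, *Nop16* had the smallest p of the 31 tested genes in the test of time points (chromosome 13, 54685546 to 54691451, minus strand, mm9). Its samples had 53.2 and 47.1 rpbp at ZT2, 30.3 and 27.6 at ZT6, 29.2 and 30.3 at ZT10, 54.6 and 49.1 at ZT14, 41.8 and 45.04 at ZT18, then 43.2 and 41.6 at ZT22. The 4 samples of ZT6 and ZT10 were below all others, and the ZT2 and ZT14 samples were above them all. The test of time points gave an adjusted p of 0.00181 in limma, and the call was kept in each of the 12 fits without 1 sample and without both ZT2 samples. The 12 hr difference was 0.68 ± 0.08 with peaks at 1.99 and 13.99 hr (limma, adjusted p = 0.00982), and this call was lost without ZT2 replicate 1, at an adjusted p of 0.058. Its 24 hr difference was 0.62 ± 0.21 (adjusted p = 0.154), and without both ZT2 samples that fit passed, with an adjusted p of 0.0301.

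The other factors of the large subunit varied less. *Rrp1* was abundant, with 84.4 and 85.9 rpbp at ZT2 against 71.04 and 75.2 rpbp at ZT6, and its 12 hr difference was 0.19 ± 0.06 (limma, adjusted p = 0.178). *Nop2*, a ribosomal RNA methyltransferase, lay between 11.04 and 19.8 rpbp, with both ends in series 1. The DEAD-box helicases *Ddx18* and *Ddx56* lay between 14.5 and 21.5 and between 15.1 and 18.7 rpbp, and their adjusted p in the 12 hr fit of limma were 0.283 and 0.312.

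Over the 12 samples, levels of the 21 genes on the log2 scale had a median Pearson correlation of 0.196 over 210 pairs, against 0.0207 over all pairs of genes. The share of pairs above 0.5 was 23.8%, against 10.6%. The highest value among them was that of *Nolc1* with *Rrp1*, 0.851. With the genes found by an older symbol included, *Nop56* with *Nop58* had 0.864 and *Nop56* with *Rrp1* had 0.861. These values describe the same 12 libraries, whose scaling and time of day all the genes share.

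Other genes of the pathway were taken from 4 lists, on RNA polymerase I, snoRNPs and their assembly, and the small and the large subunit, with 84 genes tested. The criteria of the study were met by 6 of them (7.14%), against 19.1% of all genes. The 24 hr fit of limma called 3 (3.57%, against 9.22%), the 12 hr fit 4 (4.76%, against 3.85%) and the test of time points 12 (14.3%, against 20.4%). Without both ZT2 samples these counts were 2 (2.38%, against 6.52% of all genes), 0 (against 0.00981%) and 2 (2.38%, against 6.15%). The 4 genes of the 12 hr fit, *Ngdn*, *Ftsj3*, *Senp3* and *Bysl*, then had adjusted p between 0.0891 and 0.313 in limma. By list, the 24 hr fit called 3 of 40 genes of the small subunit and none of the 31 of the large subunit, the 7 of RNA polymerase I and the 6 of snoRNPs, of which 4, 1 and 0 had an unadjusted p below 0.05 (27.6% of all genes). Their 12 hr peaks fell between 0 and 3 hr in 56 of 84 genes (66.7%), against 36.2% of all genes. This window was set after the values had been seen. *Rcl1*, a factor of the small subunit pathway, fell from 235.6 and 193.6 rpbp at ZT2 to 105.6 and 129.0 rpbp at ZT14, with a 24 hr difference of 0.91 ± 0.14 (limma, adjusted p = 0.00499, and 0.0118 without both ZT2 samples). *Nat10*, an acetyltransferase of 18S ribosomal RNA, had 7.84 and 6.4 rpbp at ZT6 and 11.04 and 12.96 rpbp at ZT18, a 24 hr difference of 0.72 ± 0.14 (limma, adjusted p = 0.0221). Its call was lost without ZT6 replicate 2, ZT10 replicate 1 or ZT22 replicate 2, and kept without both ZT2 samples (limma, adjusted p = 0.0256). Both ZT6 samples and ZT10 replicate 1 (7.36 rpbp) were below 8 rpbp, so *Nat10* passed the minimum only through its higher samples. With no expression minimum it was also called. The third call of the 24 hr fit, *Ddx52* (limma, adjusted p = 0.0497), was lost in 11 of the 12 fits that left out 1 sample, and its adjusted p was 0.201 without both ZT2 samples and 0.0724 with the replicate number as a block.

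*Myc* itself, named after its values were seen, had 3.56 and 3.92 rpbp at ZT2, 1.44 and 3.96 at ZT6, 9.16 and 14.5 at ZT10, 13.96 and 13.2 at ZT14, 1.36 and 1.72 at ZT18, then 2.60 and 3.08 at ZT22. The 4 samples of ZT10 and ZT14 were above the other 8. *Myc* passed the minimum of 8 rpbp only through these 4 samples, so no test is given for it.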

How the data were processed

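Poly(A) RNA-Seq of 12 liver samples was used. The authors aligned the sequences to mm9 with TopHat, kept those with a unique place and summed coverage over the flattened exons of each gene, divided by exon length and not by strand. The deposited signal is this coverage on a scale of 10000000 uniquely mapped sequences, which was multiplied by 4 here, as the study's minimum of 8 rpbp refers to 40000000 sequences. The deposited F24 score (a fraction), p-value and phase are the authors' own results and were not used. The columns named ZT20 were taken as the ZT22 samples. Coverage is not a count, so no counting interval is given, and the library depths that the study lists were not used here.

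F24 was the share of a 24 hr cosine in the 12 values, with 10000 random orders for the permutation p. The limma fits used log2(rpbp + 1) with the trend option, and p was adjusted by Benjamini-Hochberg over 10198 genes. Fold changes on that scale understate those of low genes. The labels do not say whether the samples of a time point are single animals, so p-values measure the spread between these samples. The series numbers did not pair the samples (correlation of deviations -0.153 to 0.206 over 15 pairs). Full statistics were given for genes called by both F24 and the 24 hr fit, filled up to 6 by p, and for the genes of highest and lowest level, those of RNA polymerase I, and for the genes called by the other tests. The genes and lists were chosen with earlier results of these data known. Positions are from GENCODE for mm9, and promoters from RefSeq. The alternatives were other expression minimums (16 rpbp or none), size factors, a pseudocount of 0.1, F24 on log2 values, the adjusted p, amplitudes from time-point means, strong rhythms (F24 above 0.6 and amplitude above 1.75), limma without the trend, a replicate block and samples or series left out. The F24, 24 hr and time point calls were tested on simulated 24 hr rhythms, and the 12 hr calls on simulated 12 hr rhythms. Software was limma 3.58.1 under R 4.3.3, and numpy 2.4.6, pandas 2.3.3 and matplotlib 3.10.9 under Python 3.11.15.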

Additional observations from a re-analysis of the deposited data

How the results depend on the processing

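Calls of single genes moved with the setting, while the 24 hr counts among the 31 tested genes stayed at 5 or fewer in every alternative that was run. By F24, 1 of the 21 genes found by symbol was called, as in the 31 together. Both counts were 2 with the replicate block (*Nip7* and *Utp14a*), 0 with the adjusted permutation p or for strong rhythms, and 5 without the amplitude minimum. Without both ZT2 samples the count was 0 of 21 and 1 of 31 (*Nop16*). Over all genes F24 called 1948, but 491 with the adjusted p and 805 for strong rhythms. The 24 hr fit of limma called none, but 1 of 21 and of 31 with size factors (*Ncl*), and 1 of 31 without both ZT2 samples (*Nop16*). The test of time points called 1 of 21 and 4 of 31. The 1 of 21 was *Nolc1*, but *Ncl* with no minimum (adjusted p = 0.0481) and with size factors (0.0335). For the 21 genes the count was 2 at a minimum of 16 rpbp (*Ncl* and *Nolc1*), and 0 with a pseudocount of 0.1, without the trend or without both ZT2 samples. For the 31 it was 5 at a minimum of 16 rpbp, 2 with no minimum or without the trend, 3 with the replicate block and 1 without both ZT2 samples, where all genes gave 627 calls against 2076. The 12 hr fit called 2 of 31, but 3 at a minimum of 16 rpbp, 1 with no minimum or without the trend and 0 without both ZT2 samples. Over all genes it called 393, but 154 with no minimum, 246 with the replicate block, 241 without the trend and 1 without both ZT2 samples. The replicate block did not change the 12 hr calls of *Nop16* and *Nop58*, and it took the adjusted p of *Nop56* for time points to 0.0584.

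The median 12 hr difference of the 31 genes was 0.277, with 0.297 at a minimum of 16 rpbp, 0.247 with size factors, 0.309 with a pseudocount of 0.1 and 0.232 without both ZT2 samples, and that of the 21 was 0.226 in the last setting. The mean 24 hr peak time of 5.64 hr became 11.1 hr with size factors and 12.2 hr without both ZT2 samples. The mean 12 hr peak time of 1.78 hr became 1.52 and 1.4 hr. The step from ZT10 to ZT14 was seen in 9 genes, and in 4 with size factors. The cause of these shifts was not tested.

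With samples or a whole series left out, the F24 count was 0 to 1 of 21 and of 31, and 286 to 2012 over all genes. The 24 hr count was 0 to 1 of 21 and of 31, and 0 to 973 over all genes. The time point count was 0 to 1 of 21, 1 to 4 of 31 and 928 to 2023 over all genes, and it could not be fitted in a single series, which has 1 sample per time point. The 12 hr count was 0 to 1 of 21, 0 to 3 of 31 and 0 to 628 over all genes. The median 24 hr difference of the 21 was 0.185 to 0.274, the median 12 hr difference 0.193 to 0.284, and that of the 31 was 0.241 to 0.301. Mean peak times were 1.18 to 10.9 hr for 24 hr and 1.13 to 2.07 hr for 12 hr. With 2 samples per time point, small changes may not have been detectable.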
